A study of Drosophila melanogaster with 24 samples.

Results

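UDP-glycosyltransferases (UGTs) are membrane-bound enzymes that attach a sugar, taken from a UDP-sugar such as UDP-glucose, to small fat-soluble compounds. The sugar makes the compound more soluble in water, so that plant toxins, insecticides, odorants, pigments and hormones can be held inactive or excreted. In *Drosophila melanogaster* the genes are known mainly from the gut, the Malpighian tubules (the renal organ of insects), the fat body and the antennae, and the substrates of most of the enzymes are unknown. The genes described here are all those with a symbol that begins with *Ugt* followed by a number, on probe sets annotated with exactly 1 gene symbol. By this rule there were 35 genes, each with 1 probe set, out of 11981 genes with 1 symbol and 18769 probe sets on the array. The number in a symbol gives the family, and the genes fell into 13 families, 7 of which had a single gene.

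Transcript abundance was compared among lines derived by artificial selection on locomotor reactivity, the movement of a fly after a mechanical disturbance. High lines were bred for high reactivity, Low lines for low reactivity, and Control lines were kept alongside them, with 2 replicate lines in each group. RNA came from whole virgin flies of both sexes, 3 to 7 days old, of generation 25. Each line and sex gave 2 samples, so that each group had 4 arrays of females and 4 of males. No group carried a designed mutation or transgene. A group is known only through its 2 lines, and selection and chance divergence of the lines cannot be told apart from them. In RNA of whole flies, fewer cells of a tissue and less RNA per cell cannot be told apart.

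Abundance is given as Signal, the linear intensity of a probe set as computed by the authors. After trimming of 2% of the probe sets at each end, the mean Signal was between 497 and 499 on all 24 arrays, while the median Signal was 93.0 to 118 over the 12 arrays of females and 143 to 158 over the 12 of males. Testis and accessory gland transcripts were high on the male arrays and yolk protein transcripts on the female arrays. Differences were estimated on the log2(Signal) scale with limma over the 11439 probe sets whose median Signal reached 75, and were called at an adjusted p under 0.05. Of the 35 UGT genes, 24 passed that minimum, the nearest to it *Ugt303B2* with a median Signal of 89.2. The other 11 did not, the nearest to it *Ugt35E1* with a median Signal of 65.4.

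Among the 24 UGT genes tested, 10 were higher in High than in Low lines and 3 were lower, averaged over the sexes. Of all probe sets tested, 15.7% were called in this comparison, 7.85% of them higher and 7.89% lower, against 54.2% of the UGT genes, 41.7% higher and 12.5% lower. The median difference of High minus Low was 0.16 over the 24 UGT genes and -0.01 over all probe sets tested. The replicate error in these calls is the spread between samples of the same line. Line was also entered in the fit as a random block, which brings spread between lines into the error. Its correlation within lines, 0.18, was a single value shared by all probe sets and not estimated for each gene. In that fit 4 of the 13 calls held, all of them higher in High lines (*Ugt35C1*, *Ugt37A2*, *Ugt37D1* and *Ugt303B1*), or 16.7% of the 24 genes, against 3.48% of all probe sets tested. Of these genes, *Ugt303B1* had a median Signal of 66.25 in Low lines and passed the minimum of 75 through the other groups. With the 6 line means as the samples, 0 UGT genes passed the adjusted threshold in limma, and 0 of all 11439 probe sets did. There 6 of the 24 UGT genes (25%) had an unadjusted p under 0.05 in limma, as did 9.62% of all probe sets tested.

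**Figure D1:**
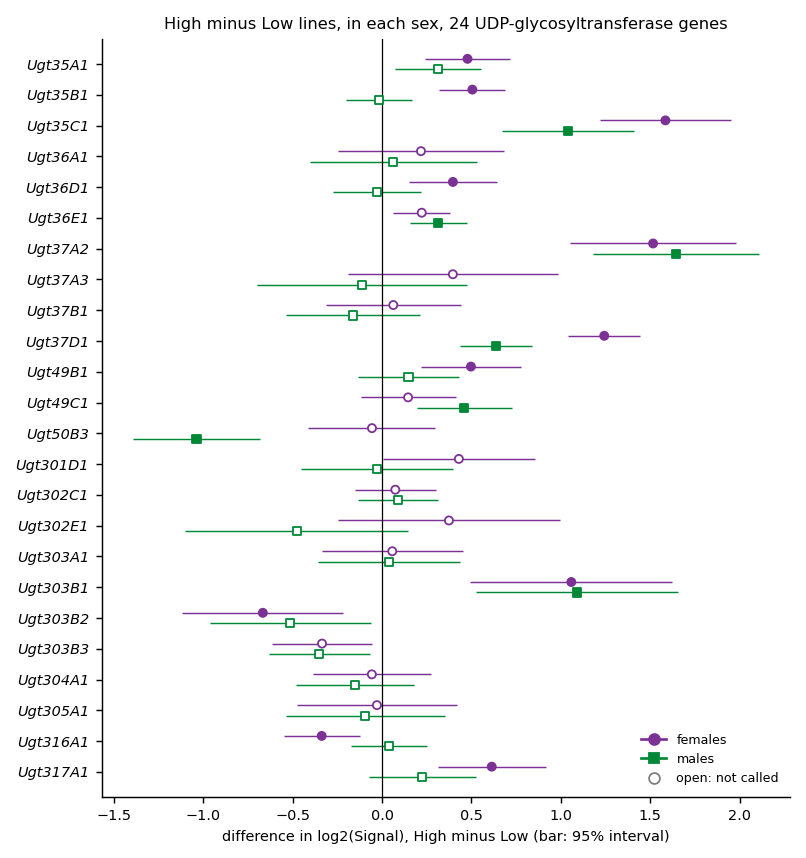
Difference of High minus Low lines in log2(Signal) for the 24 UGT genes tested, in females (circles) and males (squares), with the 95% interval of the limma fit; filled symbols were called. *Ugt35C1*, *Ugt37A2*, *Ugt37D1* and *Ugt303B1* lie right of 0 in both sexes with differences of 0.64 to 1.64, and the male value of *Ugt50B3* lies farthest to the left at -1.04.

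Family 35 held 3 tested genes, and all 3 were higher in High lines. In the sentences that follow, the 4 Signals of a group and sex are given for both samples of line 1 and then for both samples of line 2. *Ugt35C1* (probe set 1641481_at, chromosome arm 3R, formerly *Ugt86Dd*) encodes an enzyme known in *Drosophila* for its part in larval resistance to nicotine. *Ugt35C1* gave Signals of 3519, 4104, 2129 and 3525 in High females, against 1205, 1371, 945 and 859.8 in Low females and 1522, 1487, 2165 and 2090.2 in Control females. Its males gave 3509.7, 4313, 2523 and 3356 in High males, against 2282, 1755, 1559.8 and 1148 in Low males and 1910.4, 2689, 2520.4 and 3006 in Control males. All High samples lay above all Low samples in both sexes, and the Control females lay above all Low females but reached into the range of High females. The difference of High minus Low was 1.31 ± 0.12 (SE) averaged over the sexes, a 2.48-fold higher level in High lines (limma, adjusted p = 7.07e-06).

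*Ugt35A1* (1627662_at, 3R) and *Ugt35B1* (1626970_at, 3R) are neighbours in the genome, and *Ugt35B1* is known for preferential expression in the antennae. For *Ugt35A1* the Signals were 968, 1089, 718 and 860.3 in High females, against 633, 614, 687 and 647 in Low females and 734, 575, 858 and 781 in Control females. Males showed 784, 899, 700 and 776 in High males, against 603, 719.9, 618 and 596 in Low males and 524, 699, 820.4 and 724 in Control males for this gene. High females lay above all Low females, whereas 1 Low male exceeded the lowest High male, and Control samples overlapped both groups. High minus Low was 0.40 ± 0.08 for *Ugt35A1* (adjusted p = 0.00366). *Ugt35B1* read 2035, 2318, 1819 and 1739.7 in High females, against 1555, 1801, 1161 and 1132 in Low females and 1578, 1289, 1375 and 1237 in Control females. The corresponding male Signals of *Ugt35B1* were 2675, 3081, 2451 and 2871 in High males, against 3126, 3131, 2531 and 2444 in Low males and 2453, 2390, 2145 and 2215 in Control males. High females lay above all Control females and overlapped the Low females of line 1 alone, while the males of High and Low lines covered nearly the same range. Averaged over the sexes the difference of *Ugt35B1* was 0.24 ± 0.06 (adjusted p = 0.0143). It was 0.03 without Low line 2 (adjusted p = 0.894), since line 1 of the Low group lay above line 2 by 0.44 ± 0.09 (adjusted p = 0.0118). Without High line 1 neither gene was called, with differences of 0.25 for *Ugt35A1* (adjusted p = 0.140) and 0.14 for *Ugt35B1* (adjusted p = 0.257).

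Family 37 had the largest number of members, 8, of which 4 were tested and 2 were called, both higher in High lines. *Ugt37A2* (1638903_at, 3R) had the largest difference of all the UGT genes tested. Its Signals were 999.9, 945, 1164 and 1659 in High females, against 465, 443, 475 and 280 in Low females and 708, 674, 499.6 and 612 in Control females. In males *Ugt37A2* gave 698, 743, 1018 and 1786 in High males, against 333, 335, 316 and 281 in Low males and 671, 811, 398 and 745 in Control males. The 3 groups of females did not overlap at all, with High above Control and Control above Low, and in males the Low samples lay below every other sample. High minus Low was 1.58 ± 0.15, a 2.99-fold higher level in High lines (adjusted p = 1.1e-05). The High lines themselves were apart, with line 1 below line 2 by a difference of -0.71 ± 0.22 that did not pass the threshold (adjusted p = 0.0746), and the difference from Low lines was 1.93 without High line 1 and 1.22 without High line 2.

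*Ugt37D1* (1641191_s_at, 2L) is read by a probe set whose suffix marks probes shared by more than 1 transcript. It gave 1513, 1602, 1648 and 1931 in High females, against 650.5, 720.4, 773 and 680.3 in Low females and 1529.9, 1411, 889 and 836 in Control females. Male Signals of *Ugt37D1* were 1257, 1544, 1376 and 1408 in High males, against 911, 768, 951 and 963 in Low males and 1442, 1611, 914 and 1092 in Control males. High and Low samples were separate in both sexes, and Control line 1 lay in or near the range of High lines while Control line 2 lay between the groups or near the Low lines. The difference of High minus Low was 0.94 ± 0.07, or 1.92-fold (adjusted p = 4.6e-07). Within the Control group line 1 exceeded line 2 by 0.69 ± 0.09 (adjusted p = 0.000745), whereas the lines of the High group differed by -0.10 ± 0.09 (adjusted p = 0.634) and those of the Low group by -0.14 ± 0.09 (adjusted p = 0.448). The other tested genes of the family, *Ugt37A3* and *Ugt37B1*, had differences of 0.14 ± 0.19 and -0.05 ± 0.12 and were not called.

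**Figure D2:**
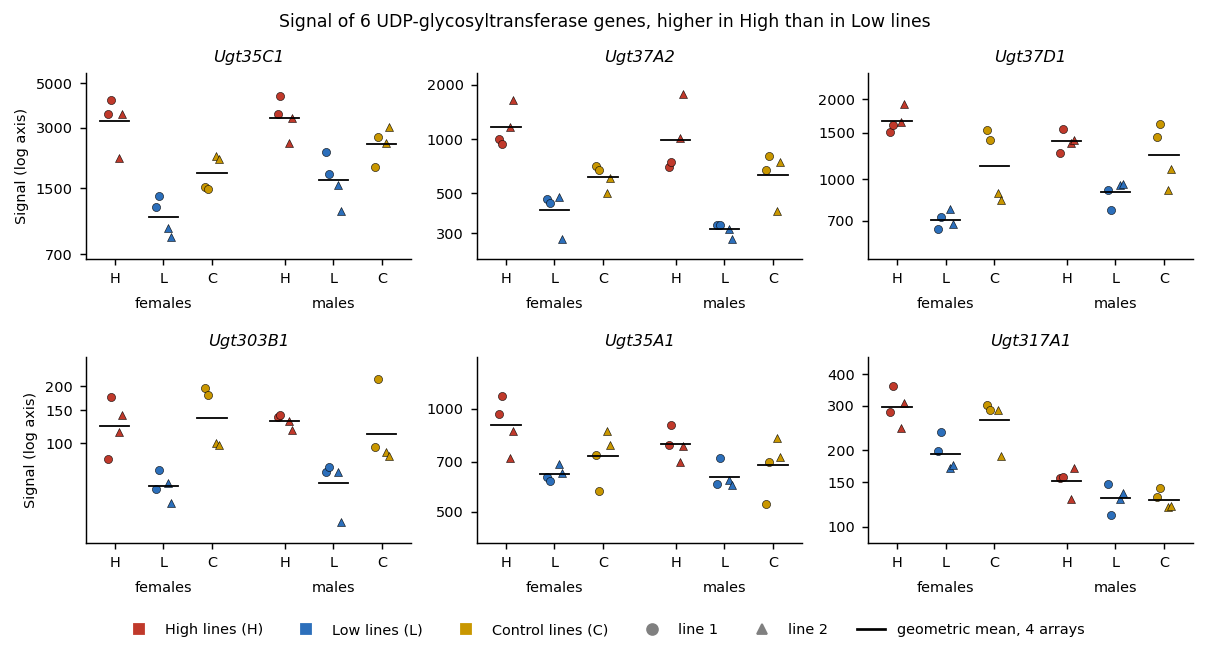
Signal (log axis) of the 6 UGT genes with the largest positive difference between High and Low lines, 1 point per array, by sex and selection group; circles are line 1, triangles line 2 and bars the geometric mean of the 4 arrays. For *Ugt35C1*, *Ugt37A2*, *Ugt37D1* and *Ugt303B1* every High sample lies above every Low sample of the same sex, and for *Ugt35A1* and *Ugt317A1* this holds in females.

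Families 36, 49 and 317 added 4 genes with smaller differences, all higher in High lines. *Ugt36E1* (1640870_s_at, 2L), also read by a probe set with the suffix of shared probes, is known in *Drosophila* for a role in olfactory neurons that respond to pheromone. Its Signals were close to each other, at 579, 583, 615 and 649 in High females, against 499, 524, 512 and 543 in Low females and 471, 457, 578 and 595 in Control females. For males of *Ugt36E1* they were 469, 482, 514 and 469 in High males, against 470.5, 411, 366 and 321 in Low males and 412, 496, 450.1 and 470 in Control males. High females lay above all Low females, and a single Low male reached the High males. High minus Low was 0.27 ± 0.05 for *Ugt36E1*, or 1.20-fold (adjusted p = 0.00329), and 0.19 without Low line 2 (adjusted p = 0.0981). *Ugt317A1* (1632070_at, 2R) gave 285, 359, 244 and 309 in High females, against 199, 236, 171 and 175 in Low females and 303, 289.6, 288 and 191 in Control females. Its male Signals were lower throughout, at 156, 157, 128 and 169.9 in High males, against 147, 112, 128 and 136 in Low males and 131, 142, 119 and 120.1 in Control males. Again the females of High and Low lines were separate and the males overlapped, with a difference of 0.42 ± 0.10 averaged over the sexes (adjusted p = 0.0106). Without High line 1 or without Low line 2 *Ugt317A1* was not called, with differences of 0.34 (adjusted p = 0.108) and 0.35 (adjusted p = 0.129).

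*Ugt49B1* (1630066_at) and *Ugt49C1* (1625873_at) lie next to each other on 2R and were higher in High lines by nearly the same amount, 0.32 ± 0.09 (adjusted p = 0.0305) and 0.30 ± 0.09 (adjusted p = 0.0311). *Ugt49B1* showed 1699.6, 2165, 1442 and 2031 in High females, against 1137, 1072, 1563 and 1426 in Low females and 1360.5, 1238, 1462 and 1543 in Control females. Males of *Ugt49B1* gave 1292, 1863, 1444 and 1555 in High males, against 1353, 1130.2, 1602 and 1465 in Low males and 1205, 1406, 1558 and 1676 in Control males. The Low females of line 1 lay below all other females, and the males of the 3 groups overlapped. *Ugt49C1* had Signals of 349, 425, 349.8 and 448 in High females, against 296, 305, 424 and 405 in Low females and 344, 268, 365 and 285 in Control females. In its males the Signals were 492, 448, 373 and 374 in High males, against 333, 255, 345 and 292 in Low males and 282, 257, 280.2 and 247 in Control males. Here High males lay above all Low and all Control males, and the females overlapped. These were the least stable of the calls, as leaving out a single array ended the call of *Ugt49B1* in 8 of 24 cases and that of *Ugt49C1* in 9 of 24. Without Low line 1 the differences were 0.14 (adjusted p = 0.474) and 0.16 (adjusted p = 0.351).

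In family 303 the genes moved in both directions. *Ugt303B3*, *Ugt303B1* and *Ugt303B2* are direct neighbours on 3R, in this order, and the middle gene was higher in High lines while both flanking genes were lower. *Ugt303B1* (1637192_at) read 82.2, 176, 115 and 140.3 in High females, against 57.5, 72.1, 61.8 and 48.6 in Low females and 197, 179, 101 and 97.8 in Control females. Male Signals for it were 138, 141, 131 and 117 in High males, against 70.7, 75.2, 70.8 and 38.4 in Low males and 95.4, 219, 90 and 85.3 in Control males. All Low samples lay below all High and all Control samples of the same sex. High minus Low was 1.07 ± 0.19, or 2.11-fold (adjusted p = 0.00129). The median Signal of *Ugt303B1* was 66.25 in Low lines, below the minimum of 75, against 134.65 in High and 99.2 in Control lines. The gene thus passed the minimum through the High and Control lines, and its Low Signals were close to background. With a minimum of 150 it was not tested. *Ugt303B2* (1638322_at) gave 82, 62.2, 82.5 and 61.2 in High females, against 93.7, 123, 119 and 119 in Low females and 92.5, 102, 49.9 and 64.5 in Control females. The males of this gene gave 84.7, 96, 45 and 68.7 in High males, against 112, 66.6, 108 and 129 in Low males and 117, 85.8, 124 and 77.2 in Control males. High females lay below all Low females and males overlapped, and the difference averaged over the sexes was -0.59 ± 0.15 (adjusted p = 0.0152). The median Signal of *Ugt303B2* was 75.35 in High lines, at the minimum of 75 and close to background, against 115.5 in Low and 89.15 in Control lines. With a minimum of 150 this gene was not tested either. *Ugt303B3* (1641664_at) had 435, 417, 254 and 302 in High females, against 399.8, 414, 496 and 430.2 in Low females and 380.2, 370.4, 489.5 and 426 in Control females. Among males of *Ugt303B3* there were 328, 414, 253 and 222 in High males, against 353, 369, 499 and 312 in Low males and 318, 370.1, 419 and 367 in Control males. High line 2 lay below every Low sample in both sexes, and High line 1 lay within the range of Low lines. The difference was -0.34 ± 0.09 (adjusted p = 0.0221), but -0.03 without High line 2 (adjusted p = 0.894), and within the High group line 1 exceeded line 2 by 0.63 ± 0.13 (adjusted p = 0.0122). Without High line 2 or without Low line 2, *Ugt303B2* was not called either, with differences of -0.41 (adjusted p = 0.132) and -0.44 (adjusted p = 0.196).

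*Ugt50B3* (1639147_s_at, 2R) was the other gene lower in High lines, and its Signal was far higher in males than in females. Its probe set also has the suffix that marks probes shared by more than 1 transcript. Female Signals of *Ugt50B3* were 103, 78.9, 151 and 127 in High females, against 99.3, 122, 159 and 95.3 in Low females and 177, 219.5, 105 and 103 in Control females. Male Signals were 867, 1064, 2943 and 2732 in High males, against 3939.8, 3432, 3254 and 2988 in Low males and 2986, 3978, 1759 and 2316 in Control males. All High males lay below all Low males, but the 2 samples of High line 1 stood far below the 2 of High line 2, and the females overlapped. High minus Low was -0.55 ± 0.12 averaged over the sexes (adjusted p = 0.00575), -1.04 ± 0.17 in males (adjusted p = 0.00187) and -0.06 ± 0.17 in females (adjusted p = 0.852). The lines of the High group differed by -1.09 ± 0.17 (line 1 minus line 2, adjusted p = 0.00173) and those of the Control group by 0.85 ± 0.17 (adjusted p = 0.00798). Without High line 1 the difference from the Low lines was -0.0023 (adjusted p = 0.995). Of the 9 testis markers measured, 1 was lower in High than in Low lines, *dj*, by -1.44 (adjusted p = 0.00724), and the summed Signal of all 9 was 61074 to 67280 in High males and 66064 to 71615 in Low males. The part of testis transcripts in the difference of *Ugt50B3* was not tested.

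The other 11 tested genes were not called between High and Low lines. Their differences lay between -0.15 (*Ugt316A1*) and 0.20 (*Ugt301D1*), with standard errors of 0.07 to 0.21. Among them were both tested genes of family 302, *Ugt302C1* at 0.08 ± 0.07 and *Ugt302E1* at -0.05 ± 0.21, and the single genes of families 301, 304, 305 and 316. *Ugt36A1*, also known as *Dot* and known for expression in the pericardial cells beside the heart, differed by 0.14 ± 0.15, but its High lines were apart, with line 1 below line 2 by -0.84 ± 0.22 (adjusted p = 0.0388).

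Differences among the 6 lines, whatever their group, were called at an adjusted p under 0.001. This line effect held for 5 of the 24 UGT genes (20.8%), against 4.76% of all probe sets tested. The genes were *Ugt35B1* (adjusted p = 0.000691), *Ugt35C1* (adjusted p = 5.5e-05), *Ugt37A2* (adjusted p = 0.0001), *Ugt37D1* (adjusted p = 3e-06) and *Ugt50B3* (adjusted p = 0.000263). At an adjusted p under 0.05 the count was 15 of 24, against 28.1% of all probe sets tested. The distance between the highest and the lowest line mean had a median of 0.57 over the 24 UGT genes and of 0.44 over all probe sets tested, and it reached 2.05 for *Ugt37A2* and 1.81 for *Ugt35C1*. High line 1 and High line 2 were each the highest line for 6 of the genes (25%), against 13% and 15.7% of all probe sets tested. Low line 1 was the highest for 0 genes, against 14.2%, and the lowest for 5 (20.8%), close to the 16.4% over all probe sets. Low line 2 was the highest for 3 genes (12.5%, against 22%), among them the neighbours *Ugt303B2* and *Ugt303B3*, and the lowest for 8 (33.3%, against 19%). Lines of at least 1 group differed from each other for 5 of the 24 genes (*Ugt35B1*, *Ugt36A1*, *Ugt37D1*, *Ugt50B3* and *Ugt303B3*), against 12.7% of all probe sets tested. By group there were 3 such genes in High lines (5.36% of all probe sets), 1 in Low lines (3.87%) and 2 in Control lines (5.57%). Only *Ugt50B3* did so in 2 groups, High and Control.

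**Figure D3:**
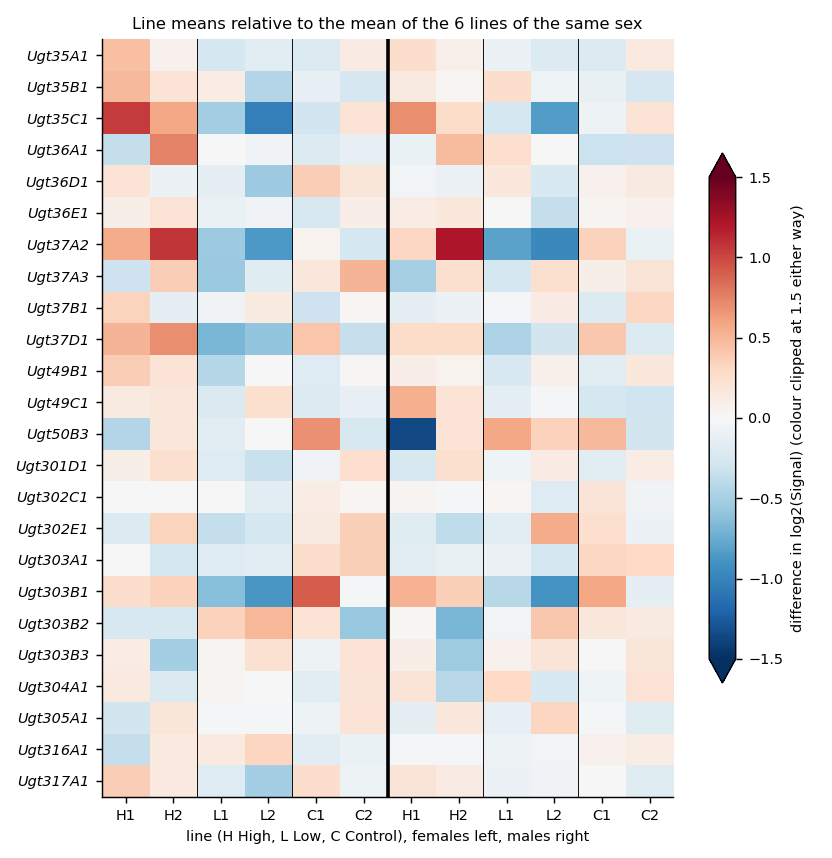
Mean log2(Signal) of each line and sex (2 arrays) for the 24 UGT genes tested, relative to the mean of the 6 lines of the same sex; red is higher and blue lower, and H, L and C stand for High, Low and Control. *Ugt35C1*, *Ugt37A2* and *Ugt37D1* are red in both High lines and blue in both Low lines in each sex, and for *Ugt50B3* the males of High line 1 lie farthest below the mean.

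Both High line means lay above both Low line means in each sex for 7 of the 24 genes (*Ugt35A1*, *Ugt35C1*, *Ugt36E1*, *Ugt37A2*, *Ugt37D1*, *Ugt303B1* and *Ugt317A1*), or 29.2%, against 7.46% of all probe sets tested. They lay below both Low line means in each sex for 0 genes, against 7.46%. The 3 genes called lower in High lines thus each had a line or a sex in which the order did not hold.

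Counted by array, the 4 High females lay above the 4 Low females for 8 genes (33.3%), against 5.98% of all probe sets tested, and below them for 1 gene, *Ugt303B2*, against 7.56%. The 8 genes were those 7 and *Ugt301D1*. In males the High arrays lay above the Low arrays for 5 genes (20.8%), against 4.72%, namely *Ugt35C1*, *Ugt37A2*, *Ugt37D1*, *Ugt49C1* and *Ugt303B1*. They lay below for *Ugt50B3* alone, against 4.23%.

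Tested within females, 9 UGT genes were higher and 2 lower in High than in Low lines, against 6.62% and 7.90% of all probe sets tested, or 14.5% in all. Within males 6 were higher and 1 lower, against 3.09% and 2.48%, or 5.57% in all. *Ugt35C1*, *Ugt37A2*, *Ugt37D1* and *Ugt303B1* were called in each sex. *Ugt36D1* and *Ugt316A1* were called in females but not over the average of the sexes, at 0.40 ± 0.12 (adjusted p = 0.0351) and -0.34 ± 0.10 (adjusted p = 0.0365). The test of the difference itself, High minus Low in males less that in females, called 0 of the 24 genes, against 0.551% of all probe sets tested. Nearest to the threshold were *Ugt37D1* with -0.60 ± 0.13 (adjusted p = 0.0612), *Ugt35B1* with -0.52 ± 0.12 (adjusted p = 0.0771) and *Ugt50B3* with -0.98 ± 0.23 (adjusted p = 0.0817). On the linear Signal all 3 of these passed, and *Ugt37D1* and *Ugt50B3* passed after quantile normalization. In the main fit neither a difference between the sexes nor its absence was shown for any of the 24 genes.

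Markers of other tissues also differed between the High and Low lines. The summed Signal of 8 egg shell genes was 3230 to 21082 in High females, 41448 to 60665 in Low females and 5001 to 37226 in Control females, so that every Low female exceeded every other female. Of these 8 genes, 3 passed the minimum and 1, *Cp15*, was called between High and Low, at -2.36 (adjusted p = 0.00284). The summed Signal of 3 antennal genes was 1521 to 2151 in High females, 1005 to 1214 in Low females and 1523 to 2148 in Control females. In males it was 2491 to 3058 in High lines, 976 to 2204 in Low lines and 2145 to 2470 in Control lines. The odorant-binding protein gene *Obp83b* was the 1 of these 3 called, at 0.93 ± 0.15 (adjusted p = 0.000707), and *Orco*, the common odorant co-receptor, differed by -0.03 ± 0.09 (adjusted p = 0.887). Sums of the gut, Malpighian tubule and fat body markers overlapped between High and Low lines in both sexes. Of 5 gut markers, *Mal-A1* was higher by 0.44 (adjusted p = 0.000836) and *Jon99Ci* lower by -1.33 (adjusted p = 0.00393). Of 3 tubule markers, *Irk3* was higher by 0.49 (adjusted p = 0.00458) and *ZnT35C* lower by -0.29 (adjusted p = 0.0156), and of 3 fat body markers *Lsp2* was lower by -1.34 (adjusted p = 0.0494). Of 4 accessory gland markers, 0 were called between High and Low males, with summed Signals of 44259 to 55984 in High males and 54466 to 64429 in Low males. *Acp98AB* was called in the average of the sexes (-1.08, adjusted p = 0.0374) and differed by -0.37 in males and by -1.79 in females, which lack this gland and had summed Signals of 22.1 to 73.6 in High lines and 21 to 93.4 in Low lines. Of the 3 yolk protein genes 0 were called. The part of any of these tissues in the UGT differences was not tested.

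Both selected groups were set against the same 8 Control arrays, so the 2 comparisons share their samples. High lines differed from Control lines for 7 of the 24 UGT genes, 5 higher and 2 lower, against 4.36% and 6.82% of all probe sets tested, or 11.2% in all. Low lines differed from Control lines for 6 genes, all lower, against 6.15% higher and 9.38% lower over all probe sets tested, or 15.5% in all. The median difference over the 24 genes was 0.04 for High minus Control and -0.13 for Low minus Control, with -0.02 and -0.01 over all probe sets tested.

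*Ugt35C1*, *Ugt37A2* and *Ugt37D1* were called on both sides of the Control lines, above them in High lines and below them in Low lines. *Ugt35C1* was higher in High lines by 0.64 ± 0.12 (adjusted p = 0.00363) and lower in Low lines by -0.67 ± 0.12 (adjusted p = 0.00224). *Ugt37A2* differed by 0.77 ± 0.15 in High lines (adjusted p = 0.00499) and by -0.80 ± 0.15 in Low lines (adjusted p = 0.0032). *Ugt37D1* differed by 0.37 ± 0.07 in High lines (adjusted p = 0.00261) and by -0.57 ± 0.07 in Low lines (adjusted p = 9.2e-05). *Ugt303B1*, by contrast, differed from Control in Low lines, by -1.03 ± 0.19 (adjusted p = 0.00218), while its High lines stood at 0.04 ± 0.19 (adjusted p = 0.924).

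Further genes were called against Control in High lines, in Low lines or in both. *Ugt35B1* was higher in High lines by 0.40 ± 0.06 (adjusted p = 0.000815) and *Ugt49C1* by 0.49 ± 0.09 (adjusted p = 0.00262), with Low lines at 0.15 ± 0.06 (adjusted p = 0.110) and 0.18 ± 0.09 (adjusted p = 0.177). *Ugt50B3* was lower in High lines by -0.52 ± 0.12 (adjusted p = 0.0111), with Low lines at 0.03 ± 0.12 (adjusted p = 0.894). *Ugt303A1* (1638981_at, 3R) differed from Control in the same direction in both selected groups, by -0.44 ± 0.13 in High lines (adjusted p = 0.0421) and -0.49 ± 0.13 in Low lines (adjusted p = 0.0208). Its Signals were 397, 438, 323 and 375 in High females, against 359, 366, 419.5 and 325 in Low females and 509, 492, 508 and 564 in Control females. Males of *Ugt303A1* gave 221, 252, 282 and 212 in High males, against 290, 214, 235 and 206 in Low males and 227, 474, 323 and 326 in Control males. Females of both selected groups lay below all Control females, and among males the groups overlapped. *Ugt36D1* (1638051_at, 2L) was lower in Low lines by -0.37 ± 0.08 (adjusted p = 0.00761), and its High lines stood at -0.19 ± 0.08 (adjusted p = 0.168). With line as a random block, 0 of the 7 calls of High against Control and 2 of the 6 calls of Low against Control held, where 1.6% and 2.2% of all probe sets tested were called.

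**Figure D4:**
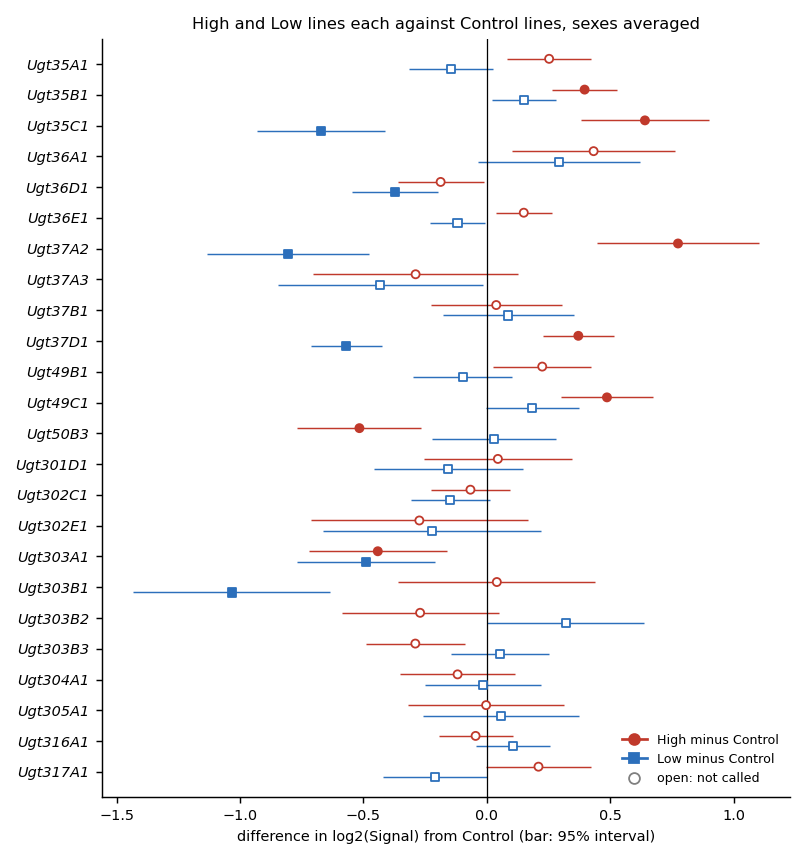
Difference of High minus Control (circles) and Low minus Control (squares) in log2(Signal), averaged over the sexes, for the 24 UGT genes tested, with the 95% interval of the limma fit; filled symbols were called. *Ugt35C1*, *Ugt37A2* and *Ugt37D1* have filled symbols on both sides of 0, and *Ugt303A1* has both on the left.

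Sexes were compared over all 6 lines at an adjusted p under 0.001. Males exceeded females for 4 UGT genes and fell below them for 6, against 25.6% and 43.9% of all probe sets tested (69.5% in all). *Ugt50B3* was 19.9-fold higher in males, with a difference of 4.32 ± 0.10 (adjusted p = 6.05e-15). *Ugt305A1* (1635046_at, 3L) was 5.70-fold higher in males, at 2.51 ± 0.12 (adjusted p = 3.02e-11). Its Signals in males were 641, 662, 824 and 790.4 in High lines, 698, 627, 833 and 982 in Low lines and 712, 709.6, 606 and 675 in Control lines, and in females they were 100.1, 111, 119.9 and 172 in High lines, 112, 139.7, 129 and 122 in Low lines and 104, 140.2, 227 and 94 in Control lines. The sexes were fully separate for this gene, and no selection group stood apart. *Ugt316A1* (1637453_at, 3L) was the gene with the largest difference towards females, at -1.42 ± 0.06 (adjusted p = 4.13e-12). Male Signals of *Ugt316A1* were 377, 427, 371 and 434 in High lines, 418, 358, 417 and 375 in Low lines and 412, 443, 443 and 437 in Control lines, and female Signals were 991, 741, 1162 and 1251 in High lines, 1315, 1108, 1338 and 1396 in Low lines and 950.4, 1012, 1009.6 and 1038 in Control lines. Within females the Low lines of this gene were above the Control lines in all 4 samples. *Ugt302E1* (1628449_at, 3R) followed with -1.08 ± 0.17 (adjusted p = 2.44e-05). Its male Signals were 92, 200.1, 150.3 and 93.8 in High lines, 97.3, 196, 266 and 192 in Low lines and 133, 253, 123 and 169.9 in Control lines, and its female Signals were 276, 290.1, 345 and 490.1 in High lines, 288, 227, 289.5 and 254 in Low lines and 405, 320, 381 and 461 in Control lines. A Low male and a Control male exceeded the lowest females of this gene. Smaller differences towards females were those of *Ugt317A1* with -0.86 ± 0.08 (adjusted p = 9.34e-08), *Ugt303A1* with -0.66 ± 0.11 (adjusted p = 3.73e-05), *Ugt304A1* with -0.39 ± 0.09 (adjusted p = 0.000888) and *Ugt36E1* with -0.31 ± 0.04 (adjusted p = 7.25e-06). *Ugt304A1* (1634029_at, 3R) showed male Signals of 212, 286, 176 and 147 in High lines, 276, 253, 204 and 167 in Low lines and 189.7, 225, 289 and 215 in Control lines, and female Signals of 361, 272, 209.7 and 279.7 in High lines, 311, 269.9, 331 and 242 in Low lines and 246, 255, 304 and 344 in Control lines, and the sexes overlapped. *Ugt35B1* at 0.75 ± 0.05 (adjusted p = 1.43e-09) and *Ugt36D1* at 0.45 ± 0.07 (adjusted p = 1.48e-05) were the other genes higher in males. For *Ugt36D1* the male Signals were 1855, 1643, 1534 and 1847 in High lines, 1998, 2010, 1630.3 and 1422 in Low lines and 1899, 1836, 1986 and 1931 in Control lines, and the female Signals were 1376, 1649, 1477 and 1031 in High lines, 1114, 1283, 857 and 941 in Low lines and 1700.3, 1678, 1345 and 1644 in Control lines. Its highest females, of Control and High lines, overlapped the lower males.

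The scaling of the arrays bears on the smaller sex differences. The median of male minus female over all probe sets tested was -0.19 with the Signal as deposited and -0.72 after each array was centred on its median. With that centring 2 UGT genes were higher and 14 lower in males, a shift that the median of all probe sets shared. The share of all probe sets called under that centring was not counted. *Ugt50B3* (3.79) and *Ugt305A1* (1.99) remained higher, *Ugt35B1* went to 0.23 (adjusted p = 0.00177), against 0.75 as deposited, and *Ugt36D1* changed sign to -0.07, against 0.45 as deposited.

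**Figure D5:**
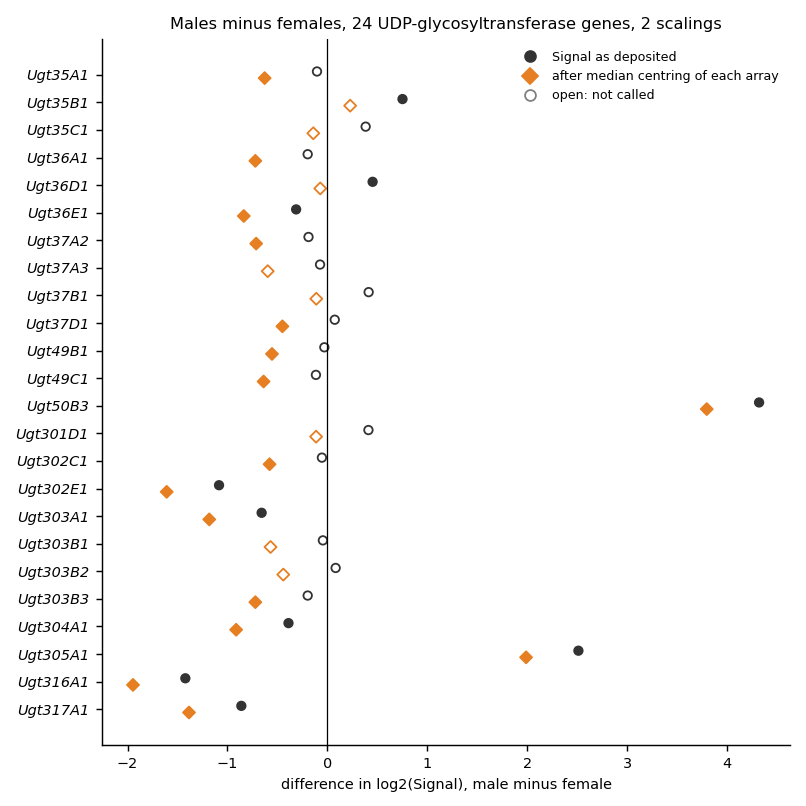
Difference of males minus females in log2(Signal), averaged over the 6 lines, for the 24 UGT genes tested, with the Signal as deposited (circles) and after centring of each array on its median (diamonds); filled symbols were called at an adjusted p under 0.001. *Ugt50B3* and *Ugt305A1* lie far to the right under both scalings, and centring moves every gene to the left by the same amount.

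The genes were also viewed by their place in the genome, which the rule for choosing them did not use. Chromosome arm 3R held 17 of the 35, 2L held 11, 2R held 5 and 3L held 2. Of the genes tested, 5 were higher and 2 lower in High than in Low lines out of 12 on 3R, 2 higher out of 6 on 2L, 3 higher and 1 lower out of 4 on 2R, and 0 out of 2 on 3L. Over all probe sets tested 7.85% were higher and 7.89% lower. Their shares by arm were not counted, so nothing about an arm follows from these counts. In the RefSeq gene order 22 of the genes lay in 7 runs of direct neighbours and 13 lay alone. Neighbours did not always share a difference. *Ugt37A2* (1.58) lies beside *Ugt37A3* (0.14 ± 0.19), and the middle gene of the *Ugt303B* run went the other way from its flanks. In the longest run, of 6 genes, *Ugt35B1* and *Ugt35A1* were higher in High lines while *Ugt304A1* (-0.10 ± 0.11) and *Ugt303A1* (0.05 ± 0.13) were not called, and *Ugt35E1* and *Ugt35E2* were below the minimum. Neighbouring UGT genes can be alike in sequence, and how far a probe set also reads its neighbour was not tested.

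The 11 genes below the minimum of median Signal were *Ugt35D1*, *Ugt35E1*, *Ugt35E2*, *Ugt36F1*, *Ugt37A1*, *Ugt37C1*, *Ugt37C2*, *Ugt37E1*, *Ugt49B2*, *Ugt302K1* and *Ugt307A1*. In a fit over all 18769 probe sets with no minimum, 3 of them were called between High and Low lines, all higher in High lines, against 7.12% of all probe sets in that fit. *Ugt36F1* (1634510_at, 2L), a neighbour of *Ugt36D1* and *Ugt36E1*, gave 61.4, 18.2, 63.8 and 76.6 in High females, against 26.1, 12, 4.7 and 6.3 in Low females and 54.6, 56.5, 34.5 and 32.2 in Control females. Its males gave Signals of 75.2, 96.2, 97.2 and 77.8 in High males, against 67.3, 106, 41.7 and 58.2 in Low males and 106, 100, 90.4 and 82.1 in Control males. All but 1 of the High females lay above all Low females, and the difference averaged over the sexes was 1.36 ± 0.23 (adjusted p = 0.00246). *Ugt37C2* (1629836_at, 2L), in the same run as *Ugt37D1*, had 97.7, 88.2, 151 and 111 in High females, against 41.7, 30.9, 6.4 and 10.7 in Low females and 79.2, 58.9, 12.7 and 80.2 in Control females. The male Signals of *Ugt37C2* were 60.1, 72.4, 47.3 and 85.3 in High males, against 43.9, 46.6, 45.3 and 28.1 in Low males and 63.7, 92.6, 9.3 and 66.3 in Control males. Every High sample lay above every Low sample of the same sex, and the difference was 1.68 ± 0.41 (adjusted p = 0.0243). *Ugt302K1* (1641242_at, 3R) gave 71.5, 68.4, 68.7 and 65.1 in High females, against 47.8, 41.2, 35.6 and 45.6 in Low females and 51.4, 53.7, 54.1 and 71.1 in Control females. For *Ugt302K1* males the values were 57, 53.5, 73.5 and 62.7 in High males, against 45.6, 62.7, 24.3 and 37.1 in Low males and 41.5, 75.1, 48.3 and 49.9 in Control males. High females lay above all Low females, males overlapped, and the difference was 0.65 ± 0.13 (adjusted p = 0.00863). Signals this low are close to the background of the array, and log2 differences there are imprecise. The third gene of the *Ugt37D1* run, *Ugt37E1*, had a difference of 0.95 ± 0.46 (adjusted p = 0.260).

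Genes that serve the same chemistry were read from lists, and 15.7% of all probe sets tested were called in this comparison (7.85% higher, 7.89% lower). Of 11 genes of UDP-sugar supply tested, 2 were higher in High than in Low lines and 0 lower, with a median difference of 0.01, a share near that of all probe sets. They were *Gfat1*, which makes the first committed amino sugar on the way to UDP-N-acetylglucosamine, at 0.55 ± 0.08 (adjusted p = 0.000357), and *sgl*, the UDP-glucose dehydrogenase that makes UDP-glucuronate, at 0.38 ± 0.09 (adjusted p = 0.0103). Of 5 tested regulators of the response to foreign compounds, 0 were higher and 1 was lower, the nuclear receptor gene *Hr96*, at -0.25 ± 0.07 (adjusted p = 0.0259). Sulfotransferases conjugate sulfate to many of the compound classes that UGTs glycosylate, and of 2 tested, *St3* was higher by 0.38 ± 0.09 (adjusted p = 0.0137) and *St1* lower by -0.45 ± 0.08 (adjusted p = 0.00153). *St3* was below Control in both selected groups, by -0.85 in High lines (adjusted p = 5.13e-05) and -1.23 in Low lines (adjusted p = 2.06e-06). Transporters carry conjugates and other organic anions across membranes, and of 12 tested, 0 were higher and 4 lower in High lines, with a median of 0.03. All 4 were organic anion transporting polypeptide genes, *Oatp58Db* at -0.997 ± 0.06 (adjusted p = 2.18e-07), *Oatp58Dc* at -0.30 ± 0.08 (adjusted p = 0.0162), *Oatp74D* at -0.33 ± 0.10 (adjusted p = 0.0432) and *Oatp30B* at -0.29 ± 0.09 (adjusted p = 0.0359).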

How the data were processed

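Total RNA of pools of whole virgin flies was hybridised to 24 Affymetrix Drosophila 2.0 arrays, 1 sample per array. The deposited value is the Signal intensity of a probe set, which the authors obtained with MAS5 from probe pairs and scaled array by array. No genome build is named in the sources used here. Columns were matched to samples by name, and 0 columns were left unused. Replicates are separate samples of flies from 1 line, so p-values measure sample spread inside lines. Precision for a selection group is limited by its 2 lines.

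Genes were named from the platform annotation, in which 13646 probe sets had 1 symbol, 402 several and 4721 none here, and 13543 of the first were matched by Entrez id to the RefSeq gene table (0 symbols changed), used for names and neighbours only. The table held no *Ugt* gene beyond the 35. No sequence is shown because none was given. Members are genes with 1 symbol that begins with *Ugt* and a number. Values are given for those called between High and Low lines, for a line effect or for a difference between the sexes, and the rest by counts and ranges. The genes and lists (UDP-sugar supply, regulators, sulfotransferases, transporters and tissue markers) were chosen with earlier results of these data known.

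log2(Signal) was fitted with limma 3.58.1 (R 4.3.3) to a mean for each of the 12 line and sex combinations (12 residual degrees of freedom), with Benjamini-Hochberg adjustment over the 11439 probe sets whose median Signal was 75 or more. Contrasts were called at 0.05, line and sex at 0.001. The script was tested on simulated data. Alternatives were the linear Signal as in the methods' factorial analysis, log2(Signal + 50), quantile normalization, median centring, a minimum of 50 or 150 or none, line means, line as a random block, the replicate number as a block, other thresholds, and leaving out each array or line. Tables and figures were made with Python 3.11.15, pandas 2.3.3, NumPy 2.4.6 and matplotlib 3.10.9. A second probe set of a gene was not tried, since each gene had 1.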

Additional observations from a re-analysis of the deposited data

Results flagged for a closer look

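In each group of 4 arrays of a selection group and sex, the sample farthest from the others was compared with the range of the group. Of 144 such groups of the 24 UGT genes tested, 6 held a sample that stood apart, and chance gives about 1 in 20. For *Ugt36D1*, 1 Control female of line 2 had a Signal of 1345 (replicate 1), and the other 3 had 1644 to 1700.3. For *Ugt37A2*, 1 Low female of line 2 had 280 (replicate 2), against 443 to 475 in the others. *Ugt303B1* held 2 such samples, a Low male of line 2 with 38.4 (replicate 2), against 70.7 to 75.2, and a Control male of line 1 with 219 (replicate 2), against 85.3 to 95.4. For *Ugt303B2*, 1 Low female of line 1 had 93.7 (replicate 1), and the others had 119 to 123. For *Ugt317A1*, 1 Control female of line 2 had 191 (replicate 2), against 288 to 303 in the others. *Ugt37A2*, *Ugt303B1*, *Ugt303B2* and *Ugt317A1* were called between High and Low lines without each of the 24 arrays in turn.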

How the results depend on the processing

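All 13 genes called between High and Low lines kept their direction under every alternative fitted. The same 13 were called with log2(Signal + 50), with quantile normalization and with the replicate number as a block. Of all probe sets tested, 18.5%, 15.3% and 15% were called in these fits. The block moved the line effect to 4 genes, without *Ugt35B1*. The deviations of same-numbered samples correlated at -0.26 to 0.26 over 66 pairs of line and sex (median -0.01, 6 over 0.1). The numbers thus marked no pairing common to all lines and sexes, and pairing among some of them was not tested. Median centring gave 10 of the 13 calls, without *Ugt35B1*, *Ugt49B1* and *Ugt49C1*, against 14.9% of all probe sets tested. With no minimum 13 were called, 10 of them the same, against 7.12% of all probe sets. A minimum of 50 gave 16 calls, against 14% of all probe sets tested. A minimum of 150 gave 11, without *Ugt303B1* and *Ugt303B2*, against 18.5%. The line effect held for 2 genes on the linear Signal, for 3 with no minimum and for 15 at an adjusted p under 0.05, the last against 28.1% of all probe sets tested. Between High and Low, 3 genes passed at an adjusted p under 0.001. A difference between the sexes of High minus Low was called for 3 genes on the linear Signal, 2 with log2(Signal + 50), 2 with quantile normalization and 1 with a minimum of 150. With log2(Signal + 50), lines of a group differed for 8 genes. For the other line effects, the threshold of 0.001 between High and Low, the differences between the sexes and the lines of a group, no share over all probe sets was counted in these settings. Median centring called 16 genes between males and females, with no share counted over all probe sets. With line as a random block (correlation 0.18, shared by all probe sets), 4 genes were called between High and Low (4 higher, 0 lower), 0 between High and Control and 2 between Low and Control. Of all probe sets tested, 3.48%, 1.6% and 2.2% were called in these comparisons. With the 6 line means, limma called 0 genes in each of these comparisons, and 0 of all 11439 probe sets between High and Low. There 6 of 24 UGT genes had an unadjusted p under 0.05 (limma), against 9.62% of all probe sets.

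Leaving out 1 array gave 10 to 14 calls between High and Low (8 to 10 higher, 2 to 4 lower), 6 to 8 between High and Control, 5 to 7 between Low and Control, 3 to 5 line effects, 9 to 10 calls between the sexes, 0 to 1 differences between the sexes of High minus Low and 4 to 6 genes with lines of a group apart. The share of all probe sets tested called between High and Low was 11.9% to 16.3% without 1 array. For the other counts without an array or a line, no share was counted. The line effect fell to 3 genes without replicate 2 of the High line 1 females or replicate 1 of the High line 1 males. Leaving out 1 line gave 7 to 13 calls between High and Low (5 to 11 higher, 1 to 3 lower), 5 to 7 between High and Control, 3 to 6 between Low and Control, 2 to 4 line effects, 9 to 10 calls between the sexes and 0 to 1 differences between the sexes. There were 7 calls between High and Low without High line 1 and 8 without Low line 2. In these fits 9.85% and 8.72% of all probe sets tested were called, against 15.7% with all lines. Between Low and Control there were 3 calls without Control line 1. The causes were not tested. Lines within a group could not be compared without 1 of them. Precision is limited by 2 lines a group, and Signal near the minimum is close to background.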
